A study of Mus musculus with 80 samples.

Results

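The left ventricles of male C57Bl/6J mice labelled as given 50 cGy of a mixed radiation field were compared with the left ventricles of male C57Bl/6J mice labelled as sham (0 cGy). Both groups were on the normal diet and each is represented by 10 RNA sequencing libraries, chosen by sex, diet, field and dose, so 20 of the 80 libraries of the study form the comparison. Absorbed dose is given in centigray (cGy). The field is labelled "Mix", with no components named, and age, interval since exposure, hour of collection and alleles are not given. Whether each library is a separate animal is not stated either, so the p-values describe a spread between libraries that may be technical. The other libraries are 10 each of males on the normal diet given 100 cGy of gamma radiation, males on a Western diet with sham exposure, and the same 4 conditions in females. Titles run in 2 blocks of numbers, 1 to 20 (replicates 1 to 5 of each group) and 21 to 40 (replicates 6 to 10), and the labels do not say what separates them.

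Heart muscle keeps its own circadian clock. The transcription factors BMAL1 and CLOCK bind E-box sequences and switch on Per, Cry, Nr1d1, Dbp and Tef. The PER and CRY proteins then inhibit BMAL1 and CLOCK, and the receptor encoded by Nr1d1 represses Bmal1 through ROR elements, so that Bmal1 and its targets peak at different hours of the day. Ionising radiation, for its part, breaks DNA strands and is known to switch on p53 target genes, DNA repair and, at later times, interferon-stimulated and matrix genes in many tissues.

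Total counts ran from 13484776 to 17994738 over the 20 libraries, and mitochondrial genes took 18.8 to 30.4% of them. Ventricular muscle was recovered in all 20: Myl2, the ventricular regulatory light chain of myosin, lay between 3570.3 and 9576 CPM (counts set to a shared library total) in mixed field libraries and between 5121 and 7592 CPM in sham libraries. Myl7, the atrial light chain, which marks atrial tissue, was 627.7 CPM in mixed field replicate 8 and between 2.48 and 15.9 CPM in mixed field replicates 1 to 4. It lay between 64.4 and 194 CPM in sham replicates 1 to 5, was 101.9 CPM in sham replicate 6 and was under 2 CPM in the 9 other libraries. Rn18s-rs5, an 18S ribosomal RNA gene, took 0.163 to 0.536% of the counts in mixed field replicates 1 to 4 and 1.63% in replicate 5. In sham replicates 1 to 4 it took 1.58 to 1.95%, and 0.293% in replicate 5. In the second block its share was 1.37 to 2.73% in mixed field and 1.5 to 3.22% in sham libraries. Over all 20 libraries the mean share was 1.27% ± 0.94 in mixed field and 1.74% ± 0.713 in sham males (SD, n = 10 each; exact permutation test within blocks, two-sided, p = 0.134, adjusted over 4 such measures p = 0.536). Most mixed field and sham libraries of the first block thus stood apart in ribosomal RNA and atrial RNA as well as in exposure, and the part of these differences in the results below was not tested except where a value is given.

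**Figure D1:**
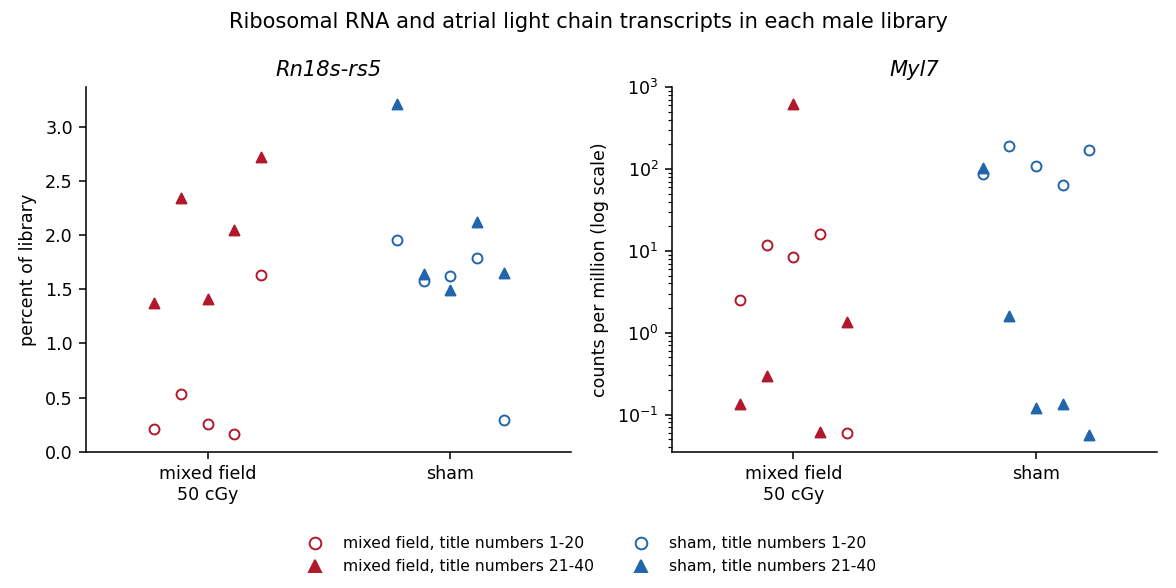
The share of counts taken by Rn18s-rs5 (left, percent of the library) and the level of Myl7 (right, CPM, log scale) in each of the 10 mixed field and 10 sham male libraries, with open circles for title numbers 1-20 and filled triangles for 21-40. In the first block 4 of the 5 mixed field libraries lie at or under 0.536% of Rn18s-rs5 and the 5 sham libraries lie at or above 64.4 CPM of Myl7, while in the second block both groups overlap.

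The mixed field comparison asked which transcripts of the male ventricle differed from sham. Of 15879 genes tested, edgeR called 25 at a Benjamini-Hochberg adjusted p under 0.05, which is 0.157% of them, with 17 higher (0.107%) and 8 lower (0.0504%) in mixed field males. Unadjusted p was under 0.05 for 1569 genes, 887 of them higher and 682 lower. Over all tested genes 52.1% had a positive log2 change and the median change was 0.01, a centre that the normalization sets. Transcripts of the clock transcription factors Bmal1, Nr1d1 and Tef, of glutamine synthetase (Glul), of the tetraspanin Tspan4 and of the cilium protein cystin (Cys1) were among the 25. Changes were moderate. The median absolute log2 change of the 25 was 0.60 and the smallest was 0.27. The ranges of the groups of 10 libraries were compared for 22 of the 25, and they overlapped in each. Rnf114, Gm38882 and Gm56971 were not compared, and the share over all genes was not counted.

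Because the clock carries 3 of the 25 calls, promoters of Bmal1 and Tef are shown first, with those of Tspan4 and St6galnac3. The latter are among the called genes outside the clock list with an E-box. The sequences are RefSeq promoters of assembly GRCm38.p6, each running from 250 bases before to 50 bases after an annotated start, printed 5′ to 3′ on the gene's strand. That assembly differs from the GRCm39 build of the counts, so its coordinates serve these sequences only. Capitals mark an E-box (CACGTG, the site of BMAL1 and CLOCK, which reads the same on both strands) or a ROR half-site (AGGTCA on either strand). The printed promoters were picked for holding such a motif. The Nr1d1 promoter and the other promoters of Bmal1 and Tspan4, not printed, held 0 E-boxes and 0 ROR half-sites.
Bmal1 (chr7:113207261-113207560, plus strand): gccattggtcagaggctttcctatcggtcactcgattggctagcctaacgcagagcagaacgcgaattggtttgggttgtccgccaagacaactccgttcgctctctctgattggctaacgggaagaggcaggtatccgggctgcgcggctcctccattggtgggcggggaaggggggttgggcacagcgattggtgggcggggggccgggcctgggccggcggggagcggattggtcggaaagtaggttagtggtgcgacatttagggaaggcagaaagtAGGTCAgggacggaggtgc
Tef (chr15:81802423-81802722, plus strand): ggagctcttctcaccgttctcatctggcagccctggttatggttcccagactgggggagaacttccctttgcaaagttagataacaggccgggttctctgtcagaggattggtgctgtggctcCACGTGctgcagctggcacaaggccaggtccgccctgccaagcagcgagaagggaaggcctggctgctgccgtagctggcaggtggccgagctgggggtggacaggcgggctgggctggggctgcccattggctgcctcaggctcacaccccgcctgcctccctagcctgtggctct
Tspan4 (chr7:141476130-141476429, plus strand): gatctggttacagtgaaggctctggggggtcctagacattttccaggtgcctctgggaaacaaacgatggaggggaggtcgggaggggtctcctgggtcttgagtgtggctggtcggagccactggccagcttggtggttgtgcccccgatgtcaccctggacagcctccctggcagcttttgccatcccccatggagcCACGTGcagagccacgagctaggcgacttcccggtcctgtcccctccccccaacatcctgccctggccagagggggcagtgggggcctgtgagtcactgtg
St6galnac3 (chr3:153725084-153725383, minus strand): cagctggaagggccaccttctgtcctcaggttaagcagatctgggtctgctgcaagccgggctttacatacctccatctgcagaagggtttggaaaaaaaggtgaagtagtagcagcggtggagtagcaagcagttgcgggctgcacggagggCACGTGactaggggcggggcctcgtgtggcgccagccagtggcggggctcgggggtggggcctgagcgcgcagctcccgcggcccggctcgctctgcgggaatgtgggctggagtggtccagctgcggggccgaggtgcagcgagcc

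The E-box starts 127 bases before the annotated start in this Tef promoter, 51 bases before it in this Tspan4 promoter and 97 bases before it in the St6galnac3 promoter. Among the called genes, 21 matched the promoter table, with 30 promoters. An E-box was present in 6 of these 30 promoters (20%), of 5 genes (Tef, Tspan4, St6galnac3, Slc41a3 and Rhobtb1). Of all 32851 RefSeq promoters of this length, 7.15% hold one. A ROR half-site was present in 6 of the 30 promoters (20%), against 16.26% of all promoters, and a D-box (TTANGTAA, the site of TEF, DBP and HLF, searched on both strands) in 0, against 2.32%. Of the 18 clock list genes that matched, E-boxes were found in 5 and ROR half-sites in 5. A GC box (GGGCGG on either strand), counted as well but not marked above, was in 18 of the 30 promoters (60%), against 35.66% of all. In the clock list it was in 23 of 26 promoters (88.5%). No share was tested against that of all promoters. The E-box, ROR half-site and D-box matches do not overlap each other in the printed promoters. A match is a run of letters in a window and was not tested for binding.

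Bmal1, the activator of the clock (ENSMUSG00000055116, chromosome 7, 112806152 to 112914735, plus strand, GRCm39), fell. It lay between 1.5 and 7.86 CPM in the mixed field libraries, with a median of 2.04 CPM, and between 5.11 and 11.4 CPM in the sham libraries, with a median of 6.96 CPM. The level was below the lowest sham library in 9 of 10 mixed field libraries, and mixed field replicate 4, at 7.86 CPM, lay among the sham values. The log2 change was -1.33 ± 0.28 (edgeR, adjusted p = 0.0149), with -1.04 ± 0.36 in the first block and -1.70 ± 0.37 in the second.

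Tef, a PAR-type basic leucine zipper factor that is switched on by the clock (ENSMUSG00000022389, chromosome 15, 81686622 to 81711064, plus strand), rose. It lay between 158 and 262 CPM in the mixed field libraries, with a median of 237 CPM, and between 105 and 197 CPM in the sham libraries, with a median of 165 CPM. In 9 of 10 mixed field libraries it was above every sham library, and the exception was again mixed field replicate 4, at 158 CPM. The log2 change was 0.49 ± 0.10 (edgeR, adjusted p = 0.0156), and 0.36 ± 0.14 and 0.61 ± 0.14 in the first and second block.

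Nr1d1, which encodes the repressor REV-ERB alpha (ENSMUSG00000020889, chromosome 11, 98658752 to 98666188, minus strand), also fell. It lay between 81.6 and 134 CPM in the mixed field libraries, with a median of 102 CPM, and between 107 and 216 CPM in the sham libraries, with a median of 156 CPM, and 7 of 10 mixed field libraries were below every sham library. The log2 change was -0.60 ± 0.13 (edgeR, adjusted p = 0.0176). It was -0.84 ± 0.17 in the first block (adjusted p = 0.0177, edgeR) and -0.36 ± 0.17 in the second (adjusted p = 0.748), and the call was lost without sham replicate 2 (adjusted p = 0.0678). Its exons overlap those of Thra on the opposite strand. How the counting treated strand is not given in the sources used here, and reads of the 2 genes may have been shared.

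Of the 22 genes of the clock list, 22 were measured, 1 was called higher and 2 lower, and 15 had positive changes (median 0.13 against 0.01 over all genes). At an unadjusted p under 0.05 there were 9 higher and 2 lower, against 887 and 682 of all 15879 genes. In the first block 12 of the 22 were positive (median 0.01) and in the second 15 (median 0.35). Per2, a period gene, had 32 ± 9.84 CPM in mixed field males and 18.2 ± 5.38 CPM in sham males (SD, n = 10 each), a log2 change of 0.79 ± 0.19 that missed the threshold (adjusted p = 0.0505, edgeR). Hlf and Dbp, PAR-type factors like Tef, had 0.47 ± 0.19 (adjusted p = 0.375) and 0.33 ± 0.18 (adjusted p = 0.56). Per3 had 0.43 ± 0.17, Cry1 0.38 ± 0.14, Cry2 0.30 ± 0.11 and Nr1d2, the relative of Nr1d1, 0.34 ± 0.11, with adjusted p of 0.382, 0.309, 0.345 and 0.252 in that order (edgeR). Npas2, a partner of BMAL1, had -0.35 ± 0.25 and Clock -0.12 ± 0.11, both short of a call (adjusted p = 0.668 and 0.777). Apart from Per2, these 8 members were picked after their values were seen. Nr1d1 and Nr1d2 thus had opposite signs. The labels give no hour of collection, so a difference in it cannot be told apart from the exposure.

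**Figure D2:**
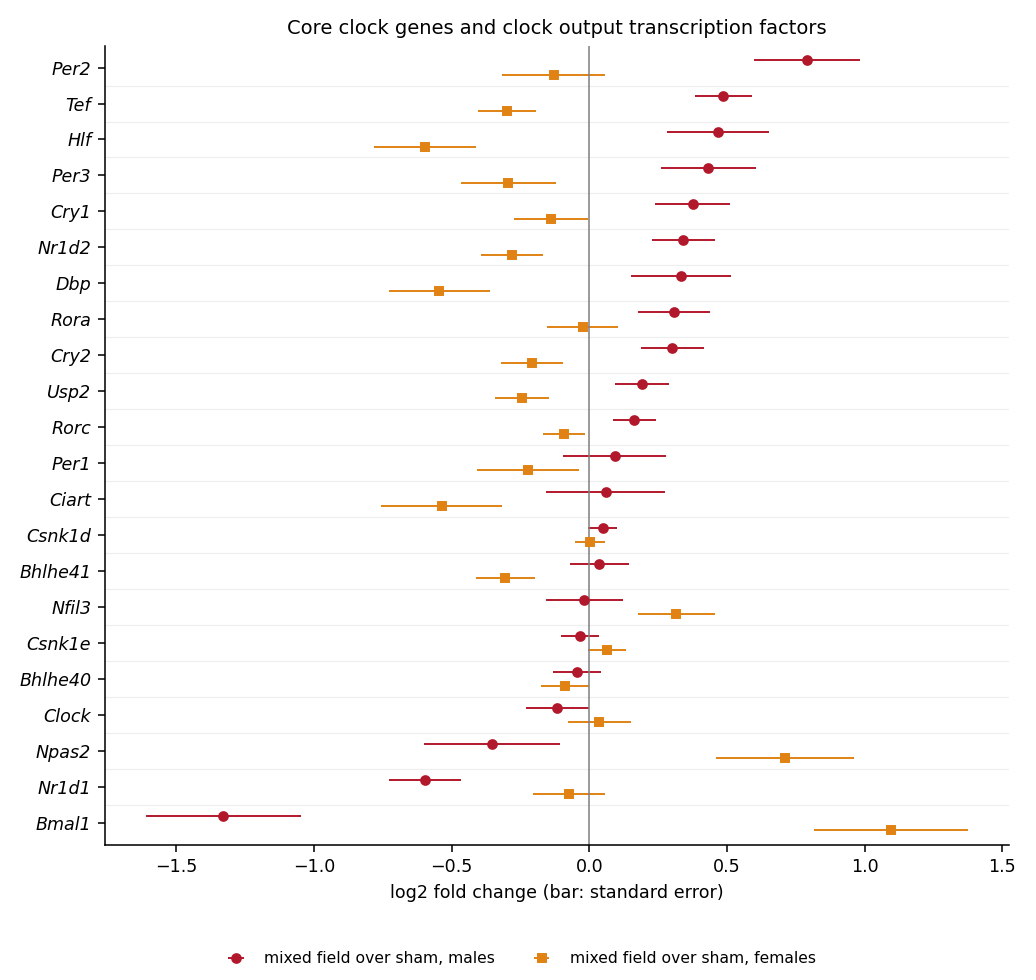
Log2 fold change of mixed field over sham in males (circles) and in females (squares) for the 22 clock list genes, with bars of 1 standard error. In males Per2, Tef and Hlf lie at the top and Bmal1 at the bottom with -1.33, while in females Bmal1 lies at 1.10.

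Outside the clock, Tspan4, a tetraspanin membrane protein (ENSMUSG00000025511, chromosome 7, 141055138 to 141073340, plus strand), rose. It lay between 26.2 and 37.6 CPM in the mixed field libraries, with a median of 32.1 CPM, and between 18.1 and 27.8 CPM in the sham libraries, with a median of 22.5 CPM. In 8 of 10 mixed field libraries it was above every sham library. The log2 change was 0.51 ± 0.09 (edgeR, adjusted p = 0.00104), with 0.59 ± 0.12 in the first and 0.43 ± 0.12 in the second block. Cys1, cystin, a protein of the primary cilium (ENSMUSG00000062563, chromosome 12, 24715832 to 24731812, minus strand), rose as well and lay between 6.32 and 15.6 CPM in the mixed field libraries, with a median of 8.43 CPM, and between 3.25 and 7.99 CPM in the sham libraries, with a median of 5.66 CPM. All 10 mixed field libraries were above the sham median, and the change was 0.78 ± 0.13 (edgeR, adjusted p = 0.00104).

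Glul, glutamine synthetase, which makes glutamine from glutamate and ammonia (ENSMUSG00000026473, chromosome 1, 153775690 to 153785469, plus strand), rose. It lay between 330.1 and 657 CPM in the mixed field libraries, with a median of 456 CPM, and between 307 and 393 CPM in the sham libraries, with a median of 336 CPM. In 9 of 10 mixed field libraries it was above every sham library. The change was 0.44 ± 0.08 (edgeR, adjusted p = 0.00183), with 0.46 ± 0.12 and 0.42 ± 0.12 in the first and second block. Rhobtb1, an atypical GTPase family member that binds the ubiquitin ligase scaffold cullin 3, rose with 153 ± 37.5 CPM in mixed field males and 94.9 ± 15.6 CPM in sham males (SD, n = 10 each) and a log2 change of 0.69 ± 0.14 (edgeR, adjusted p = 0.00754). Lonrf1, a RING finger protein, rose with 14.4 ± 2.37 CPM in mixed field males and 9.23 ± 2.07 CPM in sham males (0.65 ± 0.14, adjusted p = 0.0156). Each of these 3 was above every sham library in 9 of 10 mixed field libraries.

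Among the other rises were a subunit of the shieldin complex, which steers repair of DNA double-strand breaks, a heart-restricted protein and several enzymes. Shld1, the shieldin subunit, had 29.5 ± 6.72 CPM in mixed field males and 19.3 ± 2.7 CPM in sham males and a change of 0.61 ± 0.13 (edgeR, adjusted p = 0.0188). Lrrc10, a leucine-rich repeat protein of cardiac muscle, had 112 ± 20.5 CPM in mixed field males and 82.3 ± 9.84 CPM in sham males and a change of 0.45 ± 0.10 (adjusted p = 0.0232, edgeR), with all 10 mixed field libraries above the sham median. Cebpb, the transcription factor C/EBP beta, had 33.4 ± 8.03 CPM in mixed field males and 22.4 ± 3.55 CPM in sham males and a change of 0.57 ± 0.13 (adjusted p = 0.039, edgeR). The remaining named rises were Zfp1003 (0.73 ± 0.15), a zinc finger gene, Tmtc1 (0.63 ± 0.15), an O-mannosyltransferase of the endoplasmic reticulum, Acyp1 (0.55 ± 0.12), an acylphosphatase, Adam22 (0.50 ± 0.11), a metalloprotease-like protein without protease activity, Mtmr14 (0.30 ± 0.07), a phosphoinositide phosphatase, and Mknk2 (0.30 ± 0.06), a kinase of the translation factor eIF4E. Rnf114, a ubiquitin ligase, was called with the smallest change (0.27), and Gm38882, a gene model, was the last of the 17. Levels of Mknk2 were 337 ± 38.8 CPM in mixed field males and 276 ± 41.7 CPM in sham males, and those of Tmtc1 were 124 ± 68.8 CPM in mixed field males and 78.2 ± 14.7 CPM in sham males (SD, n = 10 each). Tmtc1 stood at 289 CPM in mixed field replicate 4, without which its adjusted p was 0.23 (edgeR). Exons of Tef, Bmal1, Tspan4, Glul, Cebpb, Shld1, Adam22, Rhobtb1, Lonrf1, Mtmr14, Tmtc1 and St6galnac3 also overlap those of genes on the opposite strand, whose reads may have been counted with theirs.

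Among the falls, St6galnac3, a sialyltransferase of glycoproteins and gangliosides, had a low level and narrow mixed field values. It lay between 2.45 and 3.8 CPM in the mixed field libraries, with a median of 3.13 CPM, and between 3.38 and 6.84 CPM in the sham libraries, with a median of 5.85 CPM, and 7 of 10 mixed field libraries were below every sham library. The change was -0.83 ± 0.15 (edgeR, adjusted p = 0.00104), with -0.79 ± 0.21 and -0.87 ± 0.21 in the first and second block. Slc41a3, of the SLC41 family of magnesium transporters, lay between 33.2 and 58.6 CPM in the mixed field libraries, with a median of 50.3 CPM, and between 55.5 and 111 CPM in the sham libraries, with a median of 79.3 CPM, with 9 of 10 mixed field libraries below every sham library. Its change was -0.72 ± 0.13 (edgeR, adjusted p = 0.00176).

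Leo1, a subunit of the PAF1 complex of RNA polymerase II elongation, lay between 9.32 and 13.9 CPM in the mixed field libraries, with a median of 11.2 CPM, and between 13.2 and 19 CPM in the sham libraries, with a median of 16.6 CPM. All 10 mixed field libraries were below the sham median and 9 were below every sham library (-0.53 ± 0.10, adjusted p = 0.00357, edgeR). Heyl, a Notch target gene and transcriptional repressor, had 28.5 ± 4.85 CPM in mixed field males and 37.3 ± 3.07 CPM in sham males (-0.38 ± 0.09, adjusted p = 0.0389, edgeR). Gm56971, a gene model, was also lower. The next falls by p did not pass: Dpy19l3, a mannosyltransferase, had -0.64 ± 0.16 (adjusted p = 0.0505), Bcl6, a transcriptional repressor, -0.41 ± 0.10 (0.0676) and Col15a1, a basement membrane collagen, -0.68 ± 0.17 (0.0683).

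Bmp10, an atrial growth factor, had the largest fitted change of the 25 (-3.61 ± 0.73, adjusted p = 0.00773, edgeR), and this rests on 1 library. It stood at 148.9 CPM in sham replicate 6 and at most at 1.43 CPM in the 19 others. Sham replicate 6 also held 101.9 CPM of Myl7. Without that library the change was 1.11, in the other direction, with an adjusted p of 0.384 (edgeR).

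**Figure D3:**
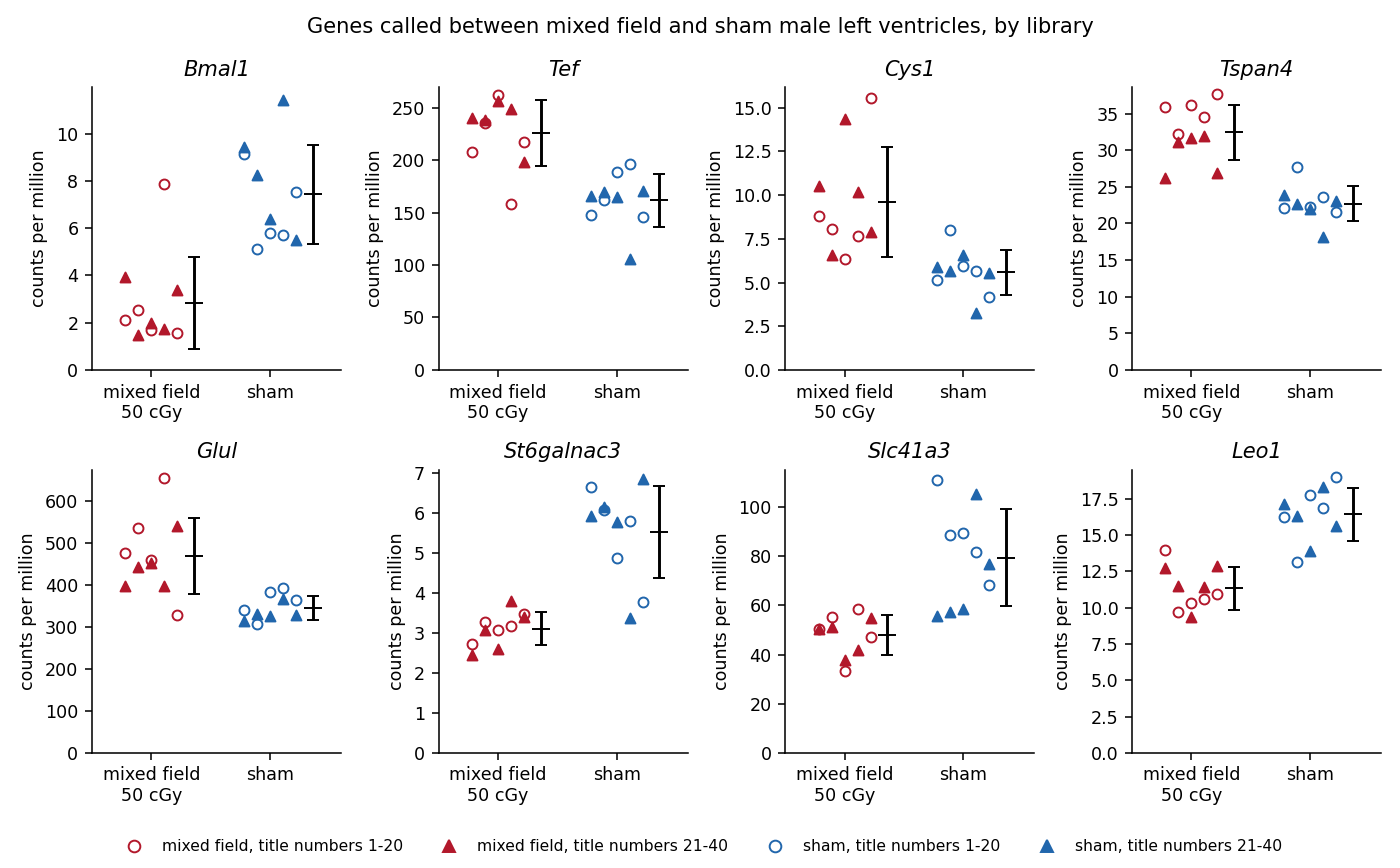
CPM of 8 called genes in each of the 10 mixed field (left) and 10 sham (right) male libraries, with open circles for title numbers 1-20 and filled triangles for 21-40, and a black bar for the mean ± SD. In each gene the groups are shifted in both blocks but overlap in at least 1 library, as with Bmal1 in mixed field replicate 4 (7.86 CPM).

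Removing 1 library at a time ended none of the calls for Bmal1, Tef, Cys1, Tspan4, Glul, Rhobtb1, Lonrf1, Zfp1003, Rnf114, St6galnac3, Slc41a3 and Leo1, which is 12 of the 25, and ended each of the other 13 at least once. Cebpb and Heyl lost theirs with any of 12 libraries, Tmtc1 with any of 10, Gm38882 with 8, Acyp1 with 7, Lrrc10 with 5, Shld1 and Adam22 with 3, Mtmr14, Mknk2 and Gm56971 with 2 and Bmp10 and Nr1d1 with 1. The number of called genes ran from 16 without mixed field replicate 7 to 118 without mixed field replicate 5, and was 44 without mixed field replicate 8. Mixed field replicate 5 was the library of the first block with 1.63% of Rn18s-rs5, and replicate 8 the one with the most Myl7. Without the libraries of either group under 1% of Rn18s-rs5, which leaves 6 mixed field and 9 sham libraries, 8 genes were called (edgeR) and 7 of them were among the 25. Their direction was kept by all 25, at a median absolute change of 0.50. Without the libraries over 10 CPM of Myl7, 7 mixed field libraries remained, 3 of the first block and 4 of the second. Of the sham libraries 4 remained, all of the second block. Gamma and Western diet males over that limit were left out too, and 0 of either remained in the first block. The estimated change then rests on the 4 mixed field and 4 sham libraries of the second block. In this fit edgeR called 0 genes and 798 had an unadjusted p under 0.05. The median absolute change of the 25 was then 0.51, with a median SE of 0.20 against 0.13 with all libraries.

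The 2 blocks hold separate libraries, 5 per group each. Within the first block 21 genes were called (0.132% of those tested), 7 higher and 14 lower, and within the second 1 (0.0063%), which was Bmp10. By edgeR the first block's count was 0 with the Rn18s-rs5 share as a term (1249 at an unadjusted p under 0.05), 0 without mixed field replicate 3 (1484) and 0 without sham replicate 1 (1544). It was 56, 1 and 557 without mixed field replicates 2, 4 and 5, and 11, 5 and 177 without sham replicates 2, 3 and 5, and all 21 kept their direction in each of these fits. At an unadjusted p under 0.05 there were 1960 and 1007 genes. The 25 genes had a median absolute change of 0.59 in the first block and 0.49 in the second, with median SEs of 0.17 and 0.17, and the signs of 24 were the same in both blocks. Since both blocks entered the calls, this describes the 25 and is no separate check of them. The genes with the smallest p in the first block were Slc41a3 (-0.85 ± 0.17), Nr1d1 (-0.84 ± 0.17), Cacna2d2 (-1.53 ± 0.31), a calcium channel subunit, Ahdc1 (-0.64 ± 0.13), a DNA-binding protein gene, and Tspan4 (0.59 ± 0.12), each with an adjusted p of 0.0177 (edgeR). Cacna2d2 was highest in sham replicates 2 and 1 and mixed field replicate 8 (19.4, 11.6 and 9.44 CPM), which held 194, 86 and 627.7 CPM of Myl7. In sham replicate 5 it was 5.83 CPM at 169.8 CPM of Myl7. The part of atrial RNA in its change was not tested. In the second block Bmal1 (-1.70 ± 0.37), Cys1 (0.88 ± 0.19), Rhobtb1 (0.85 ± 0.19) and Mid1ip1 (0.67 ± 0.15), a regulator of lipid synthesis, followed Bmp10 and did not pass (adjusted p = 0.0926 each, edgeR).

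The difference in effect between the blocks was called for 4 genes (0.0252%), Ppp1r1b, Cracd, Tmem163 and Lmntd1, all with a higher change in the second block (edgeR, adjusted p = 0.0472 each). Tmem163, a zinc transporter, shows the pattern: in the first block it lay between 0 and 0.441 CPM in mixed field and between 2.12 and 6.43 CPM in sham libraries. In the second it was 30.6 CPM in mixed field replicate 8 and at most 0.224 CPM in the 4 other mixed field libraries, and 3.81 CPM in sham replicate 6 and at most 0.182 CPM in the 4 other sham libraries. These are the libraries with high Myl7. Atrial muscle markers as a list had 3 of 19 members positive in the first block (median -0.50) and 16 of 19 in the second (median 0.46). Their summed level ran from 644.3 to 4835 CPM in mixed field and from 734.8 to 1994 CPM in sham males, and Sln, an atrial regulator of the calcium pump, was at 0 in some libraries of both groups. The count of genes with a block difference ran from 0 to 19 over the libraries left out singly and was 0 by edgeR for 12 of the 20 (978 to 1705 at an unadjusted p under 0.05). The median absolute difference of the 4 genes was 1.44 without mixed field replicate 8 and 4.63 to 5.38 without any other single library, against 4.83 with all.

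**Figure D4:**
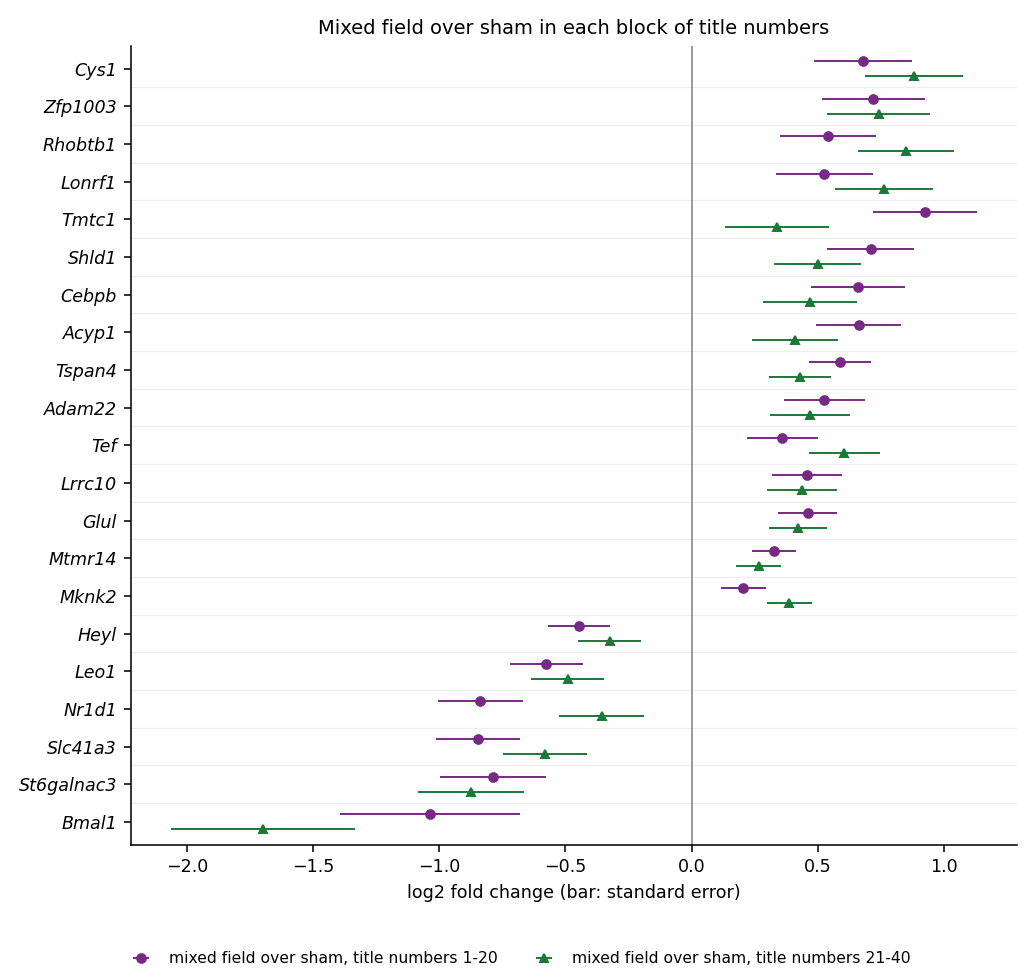
Log2 fold change of mixed field over sham for 21 called genes (Bmp10, Rnf114, Gm38882 and Gm56971 left out) in title numbers 1-20 (circles) and 21-40 (triangles), with bars of 1 standard error. The 2 values of a gene lie on the same side of 0, for instance 0.59 and 0.43 for Tspan4, and both blocks contributed to the calls.

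Of the damage and stress response lists, DNA damage and repair held the 1 called gene. Of 31 p53 targets measured, 0 were called and 16 were positive (51.6%), with a median of 0.02. Over all genes 0.157% were called and 52.1% were positive, so a list of this length is likely to hold no call. The members with the smallest p were Sesn1, a sestrin (0.26 ± 0.08, adjusted p = 0.211), Sulf2, a sulfatase (-0.25 ± 0.09, 0.283), and Rrm2b, the p53-inducible ribonucleotide reductase subunit (0.33 ± 0.12, 0.332, edgeR). Cdkn1a, the p53-induced inhibitor of cyclin-dependent kinases, chosen after its value was seen, had 23.7 ± 11.1 CPM in mixed field males and 27.6 ± 9.88 CPM in sham males (-0.19 ± 0.27, adjusted p = 0.863, edgeR). DNA damage and repair genes had 1 called member of 46, Shld1, and 25 positive (median 0.03). Cell cycle genes had 0 called of 31 and 19 positive (median 0.02), with 26 positive in the first block (median 0.39) and 8 in the second (median -0.24). Ccnd2, cyclin D2, had 0.38 ± 0.14 (adjusted p = 0.317). The senescence secretory list had 11 of 20 positive (0.02), NRF2 antioxidant genes 18 of 29 (0.04), cytosolic heat shock genes 15 of 28 (0.00), endoplasmic reticulum chaperones 12 of 22 (0.01), immediate early genes 8 of 23 (-0.09) and glucocorticoid-induced genes 8 of 13 (0.19), medians in brackets and 0 called in each. Herpud1, an endoplasmic reticulum stress gene, had 225 ± 30.2 CPM in mixed field males and 171 ± 22.8 CPM in sham males and just missed the threshold (0.40 ± 0.10, adjusted p = 0.0505, edgeR), and Ier3, an early stress gene, had 0.36 ± 0.10 (0.117).

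Most interferon-stimulated genes had positive changes, and none was called. Of 62 measured, 56 had positive changes (90.3%, against 52.1% of all genes), the median was 0.23 and 0 were called. At an unadjusted p under 0.05, 22 were higher and 0 lower, against 887 and 682 of all 15879 genes. Ifit3b and Ifit2, interferon-induced proteins with tetratricopeptide repeats, had 7.05 ± 2.97 CPM in mixed field males and 4.63 ± 1.24 CPM in sham males (0.61 ± 0.17, adjusted p = 0.137, edgeR) and 21.7 ± 5.94 CPM in mixed field males and 15.9 ± 2.26 CPM in sham males (0.45 ± 0.13, 0.15). Gbp6, a guanylate-binding protein, had 16.3 ± 7.52 CPM in mixed field males and 10.5 ± 3.01 CPM in sham males (0.65 ± 0.19, 0.154). In the first block 59 of 62 were positive (median 0.34) and in the second 41 (median 0.12). The summed level of the list overlapped widely, between 863.4 and 1743 CPM in mixed field and between 942 and 1243 CPM in sham libraries. The antigen presentation genes of MHC class I were positive in 18 of 18 (median 0.13), with 0 at an unadjusted p under 0.05, and those of MHC class II in 4 of 8 (0.01).

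In bulk tissue, fewer cells of a type and less RNA per cell cannot be told apart. Macrophage markers were positive in 28 of 28 genes in the first block (median 0.50) and in 4 of 28 in the second (median -0.20), so that the pooled 24 of 28 (median 0.18) rests on the first block. Their summed level ran from 388.1 to 954.1 CPM in mixed field and from 377.9 to 522.3 CPM in sham libraries of the first block, and from 378.3 to 543.3 CPM and 459.5 to 610.3 CPM in mixed field and sham libraries of the second. Their part in the interferon values was not tested. Neutrophil markers were positive in 6 of 6 measured genes (median 1.17, 0 called), at sums between 3.59 and 68.2 CPM in mixed field and between 3.95 and 11.9 CPM in sham libraries. Mixed field replicate 10 held the top value: S100a9 and S100a8, the subunits of calprotectin, stood there at 22.5 and 14.5 CPM and Retnlg, a neutrophil secreted protein, at 4.82 CPM. B cell markers were negative in 14 of 14 (median -0.22, 0 called) and T and natural killer cell markers positive in 12 of 15 (0.27, 0 called).

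Most matrix genes had negative changes, and none was called. Of 26 collagen genes measured, 22 had a negative change (median -0.27 against 0.01 over all genes) and 0 were called. At an unadjusted p under 0.05, 6 were lower and 0 higher, against 682 and 887 of all 15879 genes. Col15a1, of the capillary and muscle basement membrane, had 80.3 ± 33.8 CPM in mixed field males and 129 ± 21.4 CPM in sham males, and 7 of 10 mixed field libraries were below every sham library. Col5a3 had 24.8 ± 9.47 CPM in mixed field males and 45.1 ± 9.66 CPM in sham males (-0.84 ± 0.21, adjusted p = 0.0804, edgeR) and Col6a1 77.6 ± 28.7 CPM in mixed field males and 105 ± 15.4 CPM in sham males (-0.43 ± 0.13, 0.203). The summed collagen level ran from 1132 to 3475 CPM in mixed field and from 1831 to 2623 CPM in sham libraries. In the first block 15 of 26 were negative (median -0.07) and in the second 24 (median -0.49). Other matrix and fibrosis genes were negative in 29 of 42 (median -0.10), though 28 of the 42 had positive changes in the first block (median 0.12) and 5 in the second (median -0.34). Among them was Spon2, a secreted matrix protein, with 2.02 ± 1.38 CPM in mixed field males and 5.22 ± 3.23 CPM in sham males (-1.26 ± 0.33, adjusted p = 0.0859). Fibroblast markers were negative in 20 of 24 (median -0.12), with 9 of the 24 negative in the first block and 22 in the second, at sums of 2301 to 5911 CPM in mixed field and 3214 to 4514 CPM in sham libraries. Smooth muscle and pericyte markers were negative in 13 of 17 (-0.10) and endothelial markers in 17 of 24 (-0.07). Of the endothelial markers 11 were negative in the first block (median 0.01) and 19 in the second (median -0.17). None of these lists had a called gene, at 0.157% called over all genes.

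Of the muscle and metabolic lists that of glutamine and amino acids held 1 called gene and the others 0. Over all genes 0.157% were called and 52.1% were positive, so most lists of these lengths are likely to hold no call. Cardiomyocyte markers were positive in 6 of 14 (median -0.02), sarcomere and Z-disc genes in 17 of 34 (0.00), calcium handling genes in 14 of 28 (0.01), hypertrophy and fetal genes in 10 of 21 (-0.01) and potassium and sodium channels in 18 of 30 (0.02), with 0 called. The channel genes were positive in 9 of 30 in the first block (median -0.06) and in 23 in the second (median 0.13). Myh7, the slow myosin heavy chain of the fetal ventricle, lay between 102 and 2020.0 CPM in the mixed field libraries, with a median of 912 CPM, and between 188 and 2079 CPM in the sham libraries, with a median of 306 CPM, and its change was 0.92 ± 0.35 (adjusted p = 0.34, edgeR). Gata4, a cardiac transcription factor, had -0.21 ± 0.08 (0.307), Klf15, a clock-linked factor that controls the channel subunit gene Kcnip2, 0.33 ± 0.09 (0.117), and Kcnip2 itself 0.28 ± 0.09 (0.233). Pik3r1, a regulatory subunit of PI3-kinase, had 0.37 ± 0.13 (0.303).

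Glutamine and amino acid genes had 1 called member of 31, Glul, and 16 positive (median 0.01), with Prodh, proline dehydrogenase, at 0.42 ± 0.12 (adjusted p = 0.128, edgeR). Fatty acid oxidation genes were positive in 13 of 34 (-0.05) and fasting-type PPAR targets in 4 of 14 (-0.13), with 0 called. At an unadjusted p under 0.05, 0 of these PPAR targets were higher and 4 lower, against 887 and 682 of all 15879 genes. Glucose uptake and glycolysis genes were positive in 19 of 28 (0.02) and cholesterol synthesis genes in 12 of 23 (0.00). Nuclear-encoded respiratory chain genes were positive in 47 of 72 (0.02) and mitochondrially encoded genes in 9 of 13 (0.02), with 0 called in these 4 lists. The mitochondrially encoded genes were positive in 12 of 13 in the first block (median 0.15) and in 3 of 13 in the second (median -0.08). The fatty acid oxidation genes were positive in 10 of 34 in the first block (median -0.11) and in 21 in the second (median 0.05). Acot2, a mitochondrial thioesterase, had -0.33 ± 0.11 (adjusted p = 0.239, edgeR) and Angptl4, an inhibitor of lipoprotein lipase, -0.72 ± 0.27 (0.334). Pdk1, a pyruvate dehydrogenase kinase, had 0.30 ± 0.10 (0.28) and Srebf2, a transcription factor of sterol synthesis genes, -0.22 ± 0.08 (0.292). Of the remaining lists, adipocyte markers were positive in 3 of 10 (-0.10), epicardial and mesothelial in 7 of 9 (0.17), erythroid in 3 of 10 (-0.41), skeletal muscle in 4 of 9 (-0.03), Schwann cell in 3 of 11 (-0.11) and nuclear long noncoding RNAs in 1 of 8 (-0.29), with 0 called. Adipocyte markers were positive in 0 of 10 in the first block (median -0.20) and in 7 in the second (median 0.15). Pooled over both blocks the atrial list had 13 of 19 positive (0.12) and 1 called member, Bmp10.

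In females edgeR called 0 genes (0%) between the mixed field and sham, with 1293 at an unadjusted p under 0.05. The female libraries share none with the male ones. The share of Rn18s-rs5 was 3.01 to 4.44% in mixed field and 1.13 to 3.96% in sham females of the first block, and 0.45 to 0.685% in mixed field and 0.4 to 0.506% in sham females of the second. Its part in the female values themselves was not tested. The log2 change of Bmal1 was -1.33 ± 0.28 in males and 1.10 ± 0.28 in females, where it averaged 7.17 ± 4.36 CPM in mixed field females and 3.24 ± 1.64 CPM in sham females (SD, n = 10 each). The male effect minus the female effect was called for 19 genes (0.12%), 9 higher and 10 lower. With the Rn18s-rs5 share as a term 8 of the 19 were called, and all 19 kept their direction at a median absolute difference of 0.76, against 0.78 without it. The count was 11 or 12 without male mixed field replicate 3, female mixed field replicate 8 or 10 or female sham replicate 6. It was 29 to 38 without male mixed field replicate 10, female mixed field replicate 6 or 7 or female sham replicate 9, and 78 without male mixed field replicate 5. For Bmal1 this difference was -2.43 ± 0.40 (edgeR, adjusted p = 0.0003), for Tspan4 0.85 ± 0.12 (1.11e-05), for Tef 0.79 ± 0.15 (0.00336), for Leo1 -0.78 ± 0.15 (0.0031) and for Spon2 -2.50 ± 0.46 (0.0031). It was also called for Cys1 (0.93 ± 0.19), St6galnac3 (-1.01 ± 0.21), Slc41a3 (-0.88 ± 0.19), Lonrf1 (0.89 ± 0.20), Bcl6 (-0.68 ± 0.14) and Mid1ip1 (0.74 ± 0.16). For Glul (0.36 ± 0.12, adjusted p = 0.198) and Nr1d1 (-0.52 ± 0.18, 0.268) the difference did not pass. The clock list as a whole had 15 of 22 members positive in males (median 0.13) and 6 in females (median -0.14).

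Mixed field males were also set directly against gamma males, whose dose was 100 cGy. Here 111 genes were called (0.699%), 54 higher and 57 lower. The count was 176 and 73 without mixed field replicates 5 and 7 and 69 without gamma replicate 10. Cys1 differed by 1.04 ± 0.14 (edgeR, adjusted p = 6.71e-07), Tef by 0.76 ± 0.11 (2.55e-06), Slc41a3 by -0.93 ± 0.13 (4.19e-06), Per2 by 1.33 ± 0.20 (5.83e-06) and Bmal1 by -1.89 ± 0.28 (5.83e-06). Field and dose change together between these groups and cannot be told apart. Myl7 was 43.4 to 242.9 CPM in gamma replicates 1 to 5, against at most 15.9 CPM in mixed field replicates 1 to 5, and 80.4 CPM in gamma replicate 10. Rn18s-rs5 took 2.26 and 2.21% in gamma replicates 3 and 4 and at most 0.265% in gamma replicates 1, 2 and 5. With the Rn18s-rs5 share as a term 161 genes were called by edgeR, 109 of them among the 111. The part of atrial RNA in these calls was not tested. Set against the same sham libraries, which the 3 comparisons share, gamma males had 16 called genes (0.101%) and Western diet males 194 (1.22%). Bmal1 had a log2 change of -1.33 ± 0.28 in mixed field males, 0.56 ± 0.26 in gamma males and -1.31 ± 0.28 in Western diet males. Tspan4 had 0.51 ± 0.09 in mixed field, -0.07 ± 0.09 in gamma and 0.64 ± 0.09 in Western diet males. For Glul the changes were 0.44 ± 0.08 in mixed field, -0.04 ± 0.08 in gamma and 0.36 ± 0.08 in Western diet males. For St6galnac3 they were -0.83 ± 0.15 in mixed field, -0.04 ± 0.14 in gamma and -0.37 ± 0.14 in Western diet males. Shld1 had 0.61 ± 0.13 in mixed field, -0.11 ± 0.13 in gamma and 0.53 ± 0.13 in Western diet males. Of the 25 genes called in mixed field males, 15 were also called in Western diet males, who had sham exposure, and 1 in gamma males. The clock list had 15 of 22 members positive in Western diet males (median 0.215) and 6 in gamma males (median -0.066). Because the sham libraries are shared, these values and counts are given side by side only.

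**Figure D5:**
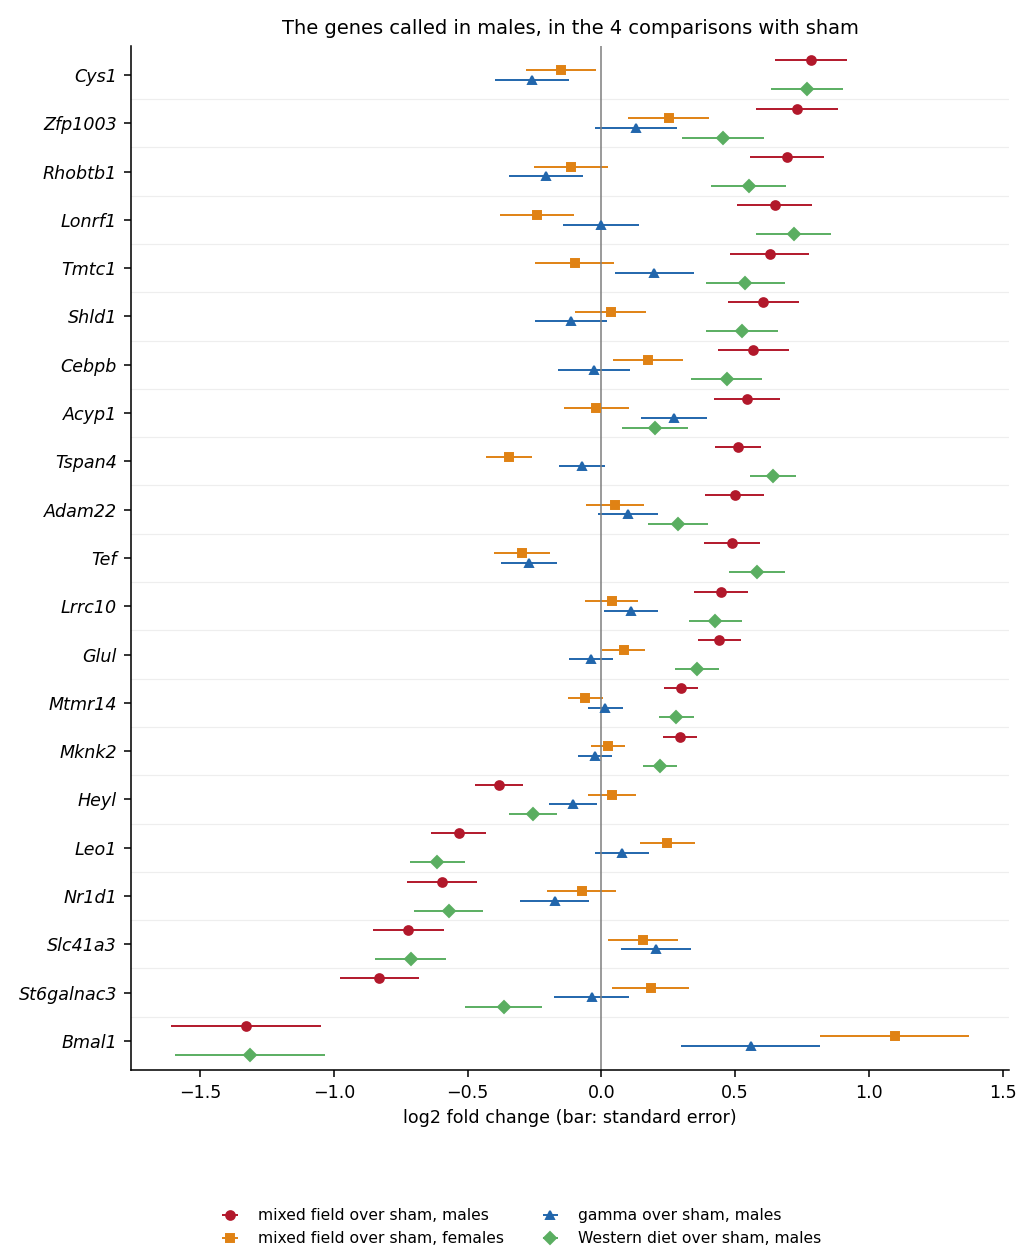
Log2 fold change over sham for 21 called genes (Bmp10, Rnf114, Gm38882 and Gm56971 left out) in mixed field males (circles), mixed field females (squares), gamma males (triangles) and Western diet males (diamonds), with bars of 1 standard error. The 3 male comparisons share their sham libraries. Bmal1, in the lowest row, lies at -1.33 in mixed field males, 1.10 in mixed field females, 0.56 in gamma males and -1.31 in Western diet males.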

How the data were processed

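RNA was sequenced from left ventricular tissue. RNA was extracted with RNeasy kits and selected by poly-A, and libraries of the NEBNext Ultra II kit were read as paired ends (NovaSeq-6000), per the labels' protocols. The submitters' processing notes name FastQC 0.11.9, STAR 2.7.8a and the genome GRCm39. Which tool counted the reads, and with what strand setting, is not given in the sources used here. The deposited values are raw counts per Ensembl gene for 56941 genes in 80 libraries, and each column name matches a library's title. Of the genes, 56323 matched GENCODE vM39, the source of symbols and coordinates.

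Mixed field males were compared with sham males in edgeR 4.0.16 (R 4.3.3) by the quasi-likelihood test, with TMM normalization and 1 fit of all 80 libraries. The fit had 1 coefficient per group and, in each sex, a term for title numbers 21 to 40. Low-count genes were removed by filterByExpr, after which 15879 genes remained, with 99.82% or more of the counts in every library. TMM factors of the 20 libraries ran from 0.868 to 1.1 and the common dispersion of 0.034 corresponds to a coefficient of variation of 18.5%. A gene was called at an adjusted p (Benjamini-Hochberg over all genes tested) under 0.05. Effects within title numbers 1 to 20 and 21 to 40, and their difference, came from a fit with 1 coefficient per group and block. Changes are log2 values with the standard error (SE), the change divided by the square root of F. Levels are CPM on TMM-adjusted library sizes. The total counts of 13484776 or more per library limit precision mainly for genes of a few CPM.

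Genes were named by a rule. From called genes averaging 1 CPM or more, with a proper gene name, it took up to 15 of the largest rises and 15 of the largest falls, filled to 10 by p. It added up to 3 genes per list with the smallest p, of which those with an unadjusted p under 0.01 are given, a limit set after the values were seen, and 5 for each further comparison. A few genes that met the rule are not reported here. The comparison, the 41 gene lists and the tests were chosen with earlier results of these data known. Of 1024 list entries, 1020 matched the annotation. Library pairs of a group were compared by chi-square of their counts, and the smallest value per degree of freedom was 8.96 in mixed field and 3.18 in sham males, so none was taken as a copy of another. The gene-wise test was also run on simulated counts, and the outcome is not given here. Those counts were drawn independently for each gene, without variation in ribosomal or atrial RNA shared between genes. The simulation is thus no check on such variation. Alternatives were other normalizations, filters, fits and tests (DESeq2 1.42.0, limma 3.58.1), terms for Rn18s-rs5, Myl7 and 2 clock components, and leaving out libraries. One alternative, without libraries under 1% of Rn18s-rs5, was added after seeing the data.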

Additional observations from a re-analysis of the deposited data

Results flagged for a closer look

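The genes given here that the naming rule chose, and 4 library measures, were checked in the 10 mixed field and the 10 sham males for a highest or lowest library whose gap to the next, as a share of the group's range, exceeded Dixon's 95% critical value for 10 samples. Of 126 groups so tested, 21 had one. Chance gives about 5% only for independent, normally distributed values. The CPM values were not transformed and several flagged genes share 1 library, so 21 of 126 is not a test of an excess. Of the 21, 3 were neutrophil genes in mixed field replicate 10, with S100a9 at 22.51, S100a8 at 14.47 and Retnlg at 4.823 CPM. Mixed field replicate 4 had the highest Bmal1 (7.86 CPM) and Spon2 (5.361 CPM) of its group, and replicate 5 the highest Ifit3b (14.38 CPM). Mixed field replicate 8 had the highest Myl7 (627.7 CPM), Sbk3 (129 CPM), Tmem163 (30.57 CPM), Lmntd1 (19.89 CPM), Ppp1r1b (13 CPM), Cracd (10.17 CPM) and Cacna2d2 (9.437 CPM). Among sham males, replicate 6 had the highest Bmp10 (148.9 CPM) and Myh7 (2079 CPM), replicate 1 the highest Bcl6 (28.52 CPM), replicate 2 the highest Cacna2d2 (19.4 CPM), replicate 5 the highest Pik3r1 (131.2 CPM), replicate 7 the highest Adam22 (18.75 CPM), and replicate 9 the highest Spon2 (13.46 CPM) and the lowest Lonrf1 (4.936 CPM).

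The mixed field effect in males minus that in females was called by edgeR's interaction contrast for Cys1 (0.93), Lonrf1 (0.89), Tspan4 (0.85), Tef (0.79), Mid1ip1 (0.74), Bmal1 (-2.43), Spon2 (-2.50), St6galnac3 (-1.01), Slc41a3 (-0.88), Leo1 (-0.78) and Bcl6 (-0.68), on the log2 scale. The effect in title numbers 21 to 40 minus that in 1 to 20 was called in males for Tmem163 (7.05), Ppp1r1b (5.20), Lmntd1 (4.46) and Cracd (1.93). The median absolute difference of these 4 was 1.44 without mixed field replicate 8 and 4.63 to 5.38 without any 1 of the 19 other libraries, against 4.83 with all.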

How the results depend on the processing

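The mixed field count of 25 in males was 25 to 30 with DESeq2's size factors, TMMwsp, robust fitting or a mean of at least 1 CPM, 32 without a filter, 27 with the 40 male libraries and 20 and 19 with Rn18s-rs5 and Myl7 terms. It was 41 with DESeq2, 39 with limma-voom, 11 with no block term, 8 with the 20 libraries alone, 43 at an adjusted p under 0.1, 1 in the second block alone, 0 without libraries over 10 CPM of Myl7 and 8 without those under 1% of Rn18s-rs5. With 2 clock components as terms it was 225 (153 higher, 72 lower), 14 of them among the 25, whose median absolute change was then 0.36. These are the first 2 principal components (main axes of variation) of the 22 clock list genes over all 80 libraries. Bmal1, Tef and Nr1d1 are among those genes and so entered the terms used to adjust them. Leaving out 1 library gave 16 to 118. The cause of these shifts in the count was not tested. The first block's 21 became 72 with DESeq2, 104 without a filter, 0 with the Rn18s-rs5 term (1249 at an unadjusted p under 0.05) and 34 without the libraries under 1%, where mixed field replicate 5 is the lone library of its arm and is assumed to vary like the others (0 of the 21 were among the 34, and 17 kept their direction), and ran from 0 to 557 over single libraries left out. The second block's 1 became 9, 18 and 3 with DESeq2, no filter and without those libraries, and 1 to 4 over single libraries. The 4 block differences became 11, 30, 0 and 58 under DESeq2, no filter, the Rn18s-rs5 term (1149 unadjusted) and without those libraries (the same lone library, 1 of the 4 shared), and 0 to 19 over single libraries. The 19 sex differences became 64 with DESeq2, 30 without a filter and 8 with the Rn18s-rs5 term, and 11 to 78 over single libraries. The 111 calls against gamma ran from 69 to 176 over single libraries. Of named genes, Bmp10 changed sign with limma-voom (0.0078), without libraries over 10 CPM of Myl7 (1.52) and without sham replicate 6 (-3.79 to 1.11 over single libraries), and Rrm2b (-0.029) and Pik3r1 (-0.0013) with the clock components. No paired analysis was possible because mixed field and sham males share no title number and replicate numbers only follow accession order. Depth limits genes near 1 CPM, such as Retnlg.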
